A study of Mus musculus with 11 samples.

Results

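Homeostatic microglia genes are the transcripts that resident immune cells of the healthy brain and spinal cord carry at high levels. The list held 33 such genes, given by symbol, and all 33 were found among the 20888 genes of the deposited table. The list was drawn up from genes known to mark microglia, with results of these data known. The tissue was lumbar spinal cord from 10-month-old C57BL/6 mice, sequenced in a series on mitofusin balance in CMT2A, a hereditary neuropathy of long axons caused by mutations in MFN2. Of the 11 libraries, 5 came from MFN2-R94Q:MFN1 mice, which carry the mutant mitofusin MFN2-R94Q together with MFN1. A further 3 came from MFN2-R94Q mice, which carry the mutant alone, and 3 from nontransgenic mice (nTg). The sources used here do not state which promoter drives each transgene, which cells express it or how many founder lines were used.

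Microglia settle in the central nervous system during embryonic life and renew themselves there. They depend on signalling through the receptor Csf1r, on the factors Spi1 (PU.1) and Irf8, and, for their resting identity, on transforming growth factor beta signalling and the zinc finger factor Sall1. Resting microglia survey the tissue with receptors such as P2ry12 and Cx3cr1, and after injury or in neurodegeneration many of these genes are lowered while phagocytic and lysosomal genes are raised.

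The deposited values are RPKM, reads divided by gene length and library depth, so levels can be compared between genes. Depth, recovered from the steps of the lowest values, was 36.3 to 71.8 M reads in MFN2-R94Q:MFN1, 30.5 to 52.3 M in MFN2-R94Q and 34.5 to 53.8 M in nTg, with overlap of all 3 groups. MFN2-R94Q replicate 2 stood apart over all tested genes. Its score on the first principal component, with 39.6% of the variance, was 27.0, against 6.20 and 8.05 for the other MFN2-R94Q libraries and -8.23 to -2.48 for the remaining 8. Calls of the 33 genes that change without that library are therefore given with and without it. Counts of gene lists are for all 11 libraries unless stated. The mouse gene Mfn1 was at 24.96 ± 0.552 RPKM in MFN2-R94Q:MFN1 (SD, n = 5), 26.3 ± 0.419 RPKM in MFN2-R94Q (n = 3) and 24.9 ± 0.675 RPKM in nTg (n = 3). The sources used here do not state the species of the transgenes, which is why the level of the mouse gene does not check the labels. Of the 33 microglia genes 31 reached 0.5 RPKM in at least 3 libraries and were tested, and each of the 31 did so in all 11 libraries. Gpr183 and Runx1 stayed under that filter.

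The microglia genes were higher with MFN1 than in either other group. Their summed level was 213.48 to 228.78 RPKM in the 5 MFN2-R94Q:MFN1 libraries, 149.52 to 172.38 RPKM in the 3 MFN2-R94Q libraries and 161.51 to 178.16 RPKM in the 3 nTg libraries. The lowest MFN2-R94Q:MFN1 library lay above every library of the other groups, whose ranges overlapped each other. Averaged over the 31 tested genes, the log2 difference from the nTg mean was 0.38, 0.34, 0.33, 0.35 and 0.29 in MFN2-R94Q:MFN1 replicates 1 to 5. It was -0.02, -0.16 and 0.04 in MFN2-R94Q replicates 1 to 3, and -0.06, 0.07 and -0.01 in nTg replicates 1 to 3. In whole tissue, a change in the number of microglia and a change in the RNA of each cell cannot be told apart.

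In MFN2-R94Q:MFN1 against MFN2-R94Q, 24 of the 31 tested genes were higher, 1 was lower (Mertk) and 6 did not pass an adjusted p of 0.05 in limma. Across all 14347 tested genes 9.55% were higher and 3.33% were lower. The median log2 fold change was 0.44 for the microglia genes and 0.01 for all genes. The 6 that did not pass were Gpr34, Tgfbr1, Slc2a5, Ikzf1, Fcgr3 and Ltc4s. Ranges did not overlap, with MFN2-R94Q:MFN1 above, for 24 of the 31, against 13.1% of all genes. Over all genes the balance of this comparison depended on the scaling, with 1370 higher and 478 lower as deposited and 1004 higher and 833 lower after quantile normalization. The microglia genes then had 23 higher and 1 lower, with a median of 0.42. Without MFN2-R94Q replicate 2, 19 were higher and none was lower, against 5.08% of all genes higher, and their median was 0.34.

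In MFN2-R94Q:MFN1 against nTg, 15 of the 31 were higher and none was lower, where 2.09% of all genes were higher and 0.223% lower. The median log2 fold change was 0.34, against 0.01 over all genes, and the values were positive for 30 of the 31. Ranges did not overlap for 23 of the 31, with MFN2-R94Q:MFN1 above, against 9.03% of all genes. When MFN2-R94Q replicate 2 was left out of the shared estimate of spread, 22 of the 31 passed, against 3.34% of all genes, at the same median. After quantile normalization of all 11 libraries, 13 of the 31 were higher and none was lower, with a median of 0.30. Of all 14347 genes, 213 were then higher and 44 lower.

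In MFN2-R94Q against nTg, 3 of the 31 were higher (Tgfbr1, Fcgr3 and Mertk), 3 were lower (P2ry12, Selplg and Sall1) and 25 did not pass. Over all genes 7.50% were higher and 10.4% lower, so the share of microglia genes called was near that of all genes. The median log2 fold change was -0.02, against -0.00 over all genes, and without MFN2-R94Q replicate 2 it was 0.05. Ranges did not overlap for 4 genes with MFN2-R94Q above and 6 with it below, against 16.6% and 19.1% of all genes. Under quantile normalization 3 were higher and 1 was lower. Without MFN2-R94Q replicate 2, 2 were higher (Tgfbr1 and Mertk) and 1 was lower (Selplg), against 4.31% and 6.98% of all genes. The 3 comparisons share libraries, so their counts are not independent of each other.

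**Figure D1:**
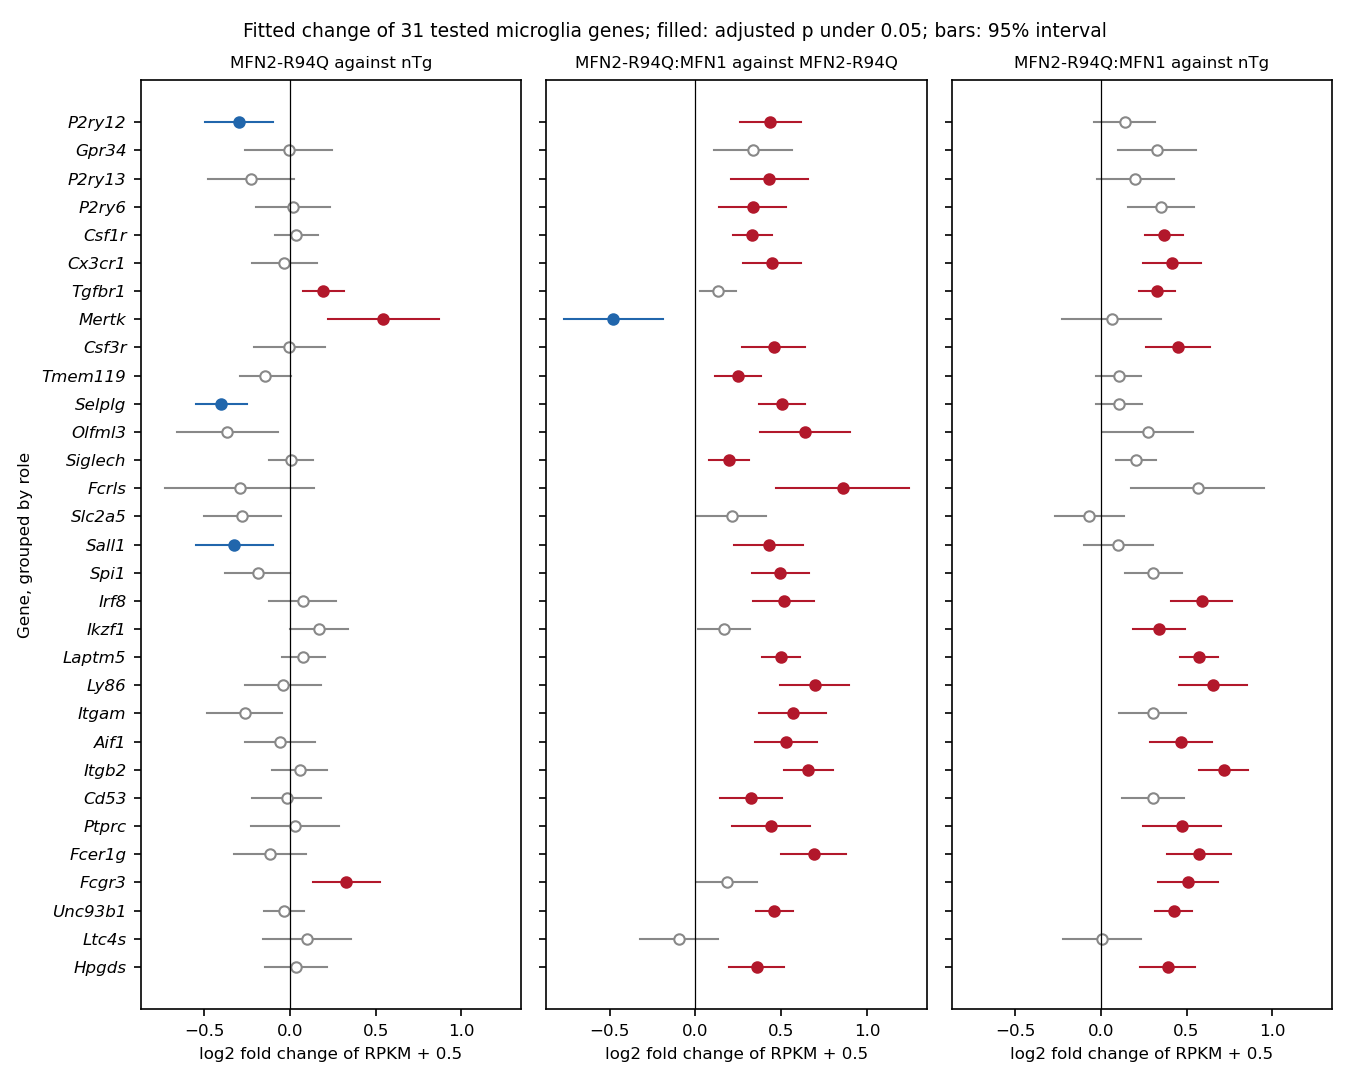
Log2 fold change on the RPKM + 0.5 scale of each of the 31 tested microglia genes (rows, grouped by role) in the 3 comparisons, with 95% confidence intervals. Filled points passed an adjusted p of 0.05 in limma (red higher, blue lower): 3 and 3 in the left panel, 24 and 1 in the middle panel, and 15 and 0 in the right panel.

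Joined over the 3 comparisons, 12 genes were higher in MFN2-R94Q:MFN1 than in both other groups and did not pass between MFN2-R94Q and nTg. They were Cx3cr1, Csf1r, Csf3r, Irf8, Itgb2, Ptprc, Laptm5, Ly86, Aif1, Fcer1g, Unc93b1 and Hpgds. A further 9 passed in MFN2-R94Q:MFN1 against MFN2-R94Q alone, namely P2ry13, P2ry6, Tmem119, Siglech, Olfml3, Fcrls, Spi1, Itgam and Cd53. P2ry12, Selplg and Sall1 were lower in MFN2-R94Q than in nTg and higher in MFN2-R94Q:MFN1 than in MFN2-R94Q. Tgfbr1 and Fcgr3 were higher than nTg in both transgenic groups, Ikzf1 passed in MFN2-R94Q:MFN1 against nTg alone, and Gpr34, Slc2a5 and Ltc4s passed in none. These joint patterns were not counted over all tested genes, so whether they are particular to the microglia genes was not tested. For P2ry12, Selplg and Sall1 both calls use the same MFN2-R94Q libraries, so low values in that group favour each call.

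Promoter sequences are shown for the 2 genes with the highest and the 2 with the lowest log2 fold change in MFN2-R94Q:MFN1 against MFN2-R94Q among those with 1 window in the RefSeq table (GRCm38.p6). Each runs from 250 bases before to 50 after the start used in that table, 5′ to 3′ on the gene's strand. Fcrls (chr3:87263475-87263774, minus strand) and Ly86 (chr13:37345095-37345394, plus strand) had the highest values. Ltc4s (chr11:50238483-50238782, minus strand) and Mertk (chr2:128698665-128698964, plus strand) had the lowest. Capitals mark GAGGAA, the core of sites bound by PU.1, the product of the member gene Spi1, or TTCCTC, the same letters on the other strand. GENCODE M21 starts these genes at other bases of the windows, such as 87263738 for Fcrls, 37345208 for Ly86 and 50238616 for Ltc4s. By those starts the capitals of Fcrls and Ltc4s lie inside the gene.
Fcrls: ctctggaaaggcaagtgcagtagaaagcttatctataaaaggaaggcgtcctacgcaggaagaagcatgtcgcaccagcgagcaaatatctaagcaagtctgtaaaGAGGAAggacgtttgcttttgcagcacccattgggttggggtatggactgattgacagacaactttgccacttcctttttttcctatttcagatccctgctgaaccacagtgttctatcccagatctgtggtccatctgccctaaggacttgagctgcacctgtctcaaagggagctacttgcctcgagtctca
Ly86: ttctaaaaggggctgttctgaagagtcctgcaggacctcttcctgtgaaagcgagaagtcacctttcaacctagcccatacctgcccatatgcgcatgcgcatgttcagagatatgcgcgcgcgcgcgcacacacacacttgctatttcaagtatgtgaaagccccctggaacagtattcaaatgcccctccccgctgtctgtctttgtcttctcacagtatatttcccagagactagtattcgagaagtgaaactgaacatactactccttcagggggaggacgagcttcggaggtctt
Ltc4s: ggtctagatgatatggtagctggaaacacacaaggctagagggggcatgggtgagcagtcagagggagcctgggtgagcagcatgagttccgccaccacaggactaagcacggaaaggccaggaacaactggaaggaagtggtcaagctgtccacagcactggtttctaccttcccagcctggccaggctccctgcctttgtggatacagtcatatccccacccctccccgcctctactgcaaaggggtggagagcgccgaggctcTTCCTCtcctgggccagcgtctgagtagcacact
Mertk: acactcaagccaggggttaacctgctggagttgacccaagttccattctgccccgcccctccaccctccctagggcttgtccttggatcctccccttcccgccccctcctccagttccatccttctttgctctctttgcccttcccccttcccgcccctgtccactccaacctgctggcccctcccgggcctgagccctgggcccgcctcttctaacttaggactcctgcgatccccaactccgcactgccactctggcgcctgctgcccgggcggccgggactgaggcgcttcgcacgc
The letters were present in the windows of Fcrls and Ltc4s and absent from those of Ly86 and Mertk. Of the 33 windows that belong to 25 of the microglia genes, 15 (45.5%) held GAGGAA on either strand, against 28.3% of all 32851 windows in the table. TGTGGT, the core of RUNX sites, was in 30.3% of the microglia windows and 16.8% of all. CAGAC, a core of SMAD sites, was in 57.6% and 49.6%. The ETS-IRF composite motif, whose first letters can overlap GAGGAA, was in none of the 33 and in 2.72% of all. Several genes have more than 1 window, and a match is a description of letters, not a binding site.

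The purinergic and lipid-sensing receptors were P2ry12 and P2ry13, which respond to ADP, P2ry6, which responds to UDP, Gpr34, a receptor for lysophosphatidylserine, and Gpr183, a receptor for oxysterols. A number in parentheses after a log2 fold change is its limma adjusted p. Of the 4 tested, 3 were higher in MFN2-R94Q:MFN1 than in MFN2-R94Q, against 9.55% of all genes, and none passed against nTg. P2ry12 was lower in MFN2-R94Q than in nTg, where 10.4% of all genes were lower. P2ry12 (chr3:59216272-59262871, GRCm38) was at 10.8, 10.9, 10.99, 10.9 and 10.3 RPKM in MFN2-R94Q:MFN1 libraries, 9.01, 6.57 and 8.08 RPKM in MFN2-R94Q libraries, and 9.19, 10.97 and 9.11 RPKM in nTg libraries. All 3 MFN2-R94Q values were below every nTg value and below every MFN2-R94Q:MFN1 value. The log2 fold change was -0.30 in MFN2-R94Q against nTg (SE 0.09, limma adjusted p = 0.0415) and 0.44 in MFN2-R94Q:MFN1 against MFN2-R94Q (SE 0.08, adjusted p = 0.00694). Against nTg, MFN2-R94Q:MFN1 was at 0.14, with a 95% interval of -0.04 to 0.32. The fall in MFN2-R94Q was lost when any library other than MFN2-R94Q replicate 1 was left out, with log2 fold changes of -0.34 to -0.18 and adjusted p of 0.0518 to 0.160.

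P2ry13 (chr3:59207892-59210882) lies 5390 bases from P2ry12, and both lie within Med12l on the opposite strand. It was at 3.75, 4.23, 4.19, 3.58 and 3.28 RPKM in MFN2-R94Q:MFN1 libraries, 2.49, 2.68 and 2.89 RPKM in MFN2-R94Q libraries, and 2.63, 3.96 and 3.22 RPKM in nTg libraries. The MFN2-R94Q:MFN1 values were above all MFN2-R94Q values and overlapped nTg, with a log2 fold change of 0.43 against MFN2-R94Q (limma adjusted p = 0.0194, and 0.0518 without MFN2-R94Q replicate 2). P2ry6 was at 1.43, 1.06, 1.19, 1.21 and 0.936 RPKM in MFN2-R94Q:MFN1 libraries, 0.732, 0.834 and 0.885 RPKM in MFN2-R94Q libraries, and 0.772, 0.862 and 0.767 RPKM in nTg libraries. MFN2-R94Q:MFN1 lay above both other groups, at 0.33 on the log2 scale against MFN2-R94Q (adjusted p = 0.0301) and 0.35 against nTg (adjusted p = 0.0645). The call against MFN2-R94Q was lost without MFN2-R94Q replicate 1 or 2 or MFN2-R94Q:MFN1 replicate 1, 3 or 4 (adjusted p of 0.0519 to 0.0774), and the call against nTg was gained without MFN2-R94Q:MFN1 replicate 5 (0.0323).

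Gpr34 was at 5.49, 5.11, 5.53, 4.33 and 5.55 RPKM in MFN2-R94Q:MFN1 libraries, 4.52, 3.19 and 4.45 RPKM in MFN2-R94Q libraries, and 3.94, 4.51 and 3.69 RPKM in nTg libraries. MFN2-R94Q:MFN1 replicate 4 fell within the range of the other groups, and the log2 fold change of 0.33 against MFN2-R94Q did not pass (limma adjusted p = 0.0544). It passed without MFN2-R94Q replicate 1 or 3 or MFN2-R94Q:MFN1 replicate 4 (adjusted p of 0.0330 to 0.0464), and fell short by more without MFN2-R94Q replicate 2, at 0.19 (0.232). It passed against nTg without MFN2-R94Q replicate 2 (0.0333). Gpr183 was under the filter, at 0.502, 0.467, 0.457, 0.5199 and 0.475 RPKM in MFN2-R94Q:MFN1 libraries, 0.266, 0.332 and 0.292 RPKM in MFN2-R94Q libraries, and 0.327, 0.414 and 0.235 RPKM in nTg libraries. Its MFN2-R94Q:MFN1 values were above all others, at levels that correspond to about 22 to 91 reads per library.

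The receptors for chemokine, growth factor and engulfment signals were Csf1r, Cx3cr1, Csf3r, Tgfbr1 and Mertk. Of these 5, 3 were higher and 1 was lower in MFN2-R94Q:MFN1 than in MFN2-R94Q, against 9.55% and 3.33% of all genes. Relative to nTg, 4 were higher in MFN2-R94Q:MFN1, against 2.09% of all genes. Csf1r, the receptor on which microglial survival depends, had the highest level of the 33 in each group (chr18:61100598-61132149). It was at 29.5, 27.8, 27.3, 30.3 and 29.01 RPKM in MFN2-R94Q:MFN1 libraries, 23.1, 20.9 and 24.5 RPKM in MFN2-R94Q libraries, and 21.4, 23.5 and 21.6 RPKM in nTg libraries. Every MFN2-R94Q:MFN1 library was above every other library, and MFN2-R94Q and nTg overlapped. The log2 fold change was 0.33 against MFN2-R94Q (SE 0.05, limma adjusted p = 0.00287) and 0.37 against nTg (SE 0.05, adjusted p = 0.00167). Exons of Csf1r share 873 bases with exons of Hmgxb3 on the opposite strand, and whether counting used strand is not stated in the sources used here.

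Cx3cr1, the fractalkine receptor, was at 13.6, 14.97, 14.1, 13.7 and 12.8 RPKM in MFN2-R94Q:MFN1 libraries, 11.2, 8.54 and 10.4 RPKM in MFN2-R94Q libraries, and 9.67, 11.4 and 9.800 RPKM in nTg libraries. Csf3r, the receptor for granulocyte colony-stimulating factor, was at 2.903, 2.85, 2.51, 2.28 and 2.36 RPKM in MFN2-R94Q:MFN1 libraries, 1.56, 1.64 and 2.06 RPKM in MFN2-R94Q libraries, and 1.77, 1.67 and 1.81 RPKM in nTg libraries. For both, all MFN2-R94Q:MFN1 values were above all others. Cx3cr1 had log2 fold changes of 0.45 against MFN2-R94Q (limma adjusted p = 0.00495) and 0.41 against nTg (0.0134, and 0.0744 to 0.0853 without nTg replicate 1 or 3). Csf3r had 0.46 against MFN2-R94Q (adjusted p = 0.00695) and 0.45 against nTg (0.0134, and 0.0567 to 0.0744 without nTg replicate 1 or 2).

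Tgfbr1, the type I receptor for transforming growth factor beta, was at 6.71, 5.96, 6.52, 6.55 and 6.59 RPKM in MFN2-R94Q:MFN1 libraries, 5.62, 5.72 and 6.23 RPKM in MFN2-R94Q libraries, and 5.26, 4.91 and 4.99 RPKM in nTg libraries. Both transgenic groups lay above nTg and overlapped each other. Tgfbr1 rose in MFN2-R94Q:MFN1, by a log2 value of 0.33 relative to nTg (SE 0.05, limma adjusted p = 0.00271) and in MFN2-R94Q against nTg at 0.19 (SE 0.06, adjusted p = 0.0297). The second call did not hold when MFN2-R94Q replicate 3 or nTg replicate 2 or 3 was left out (adjusted p of 0.0798 to 0.0981). Between the transgenic groups the difference was 0.13 (95% interval 0.03 to 0.24, adjusted p = 0.0943).

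Mertk, an engulfment receptor of microglia and also of astrocytes, moved against the other genes. It was at 5.24, 4.73, 4.597, 4.53 and 4.398 RPKM in MFN2-R94Q:MFN1 libraries, 5.64, 9.49 and 5.68 RPKM in MFN2-R94Q libraries, and 4.99, 4.501 and 3.95 RPKM in nTg libraries. All MFN2-R94Q values were above all others, and MFN2-R94Q replicate 2 stood far above the rest. The log2 fold change was -0.48 in MFN2-R94Q:MFN1 against MFN2-R94Q (SE 0.13, limma adjusted p = 0.0342) and 0.54 in MFN2-R94Q against nTg (SE 0.15, adjusted p = 0.0256). Without MFN2-R94Q replicate 2 these were -0.25 (adjusted p = 0.0773) and 0.31 (adjusted p = 0.0325). Leaving out MFN2-R94Q:MFN1 replicate 2, 3, 4 or 5 also ended the call of the fall (0.0595 to 0.0773 over these and the library above), and the rise was lost without nTg replicate 2 or 3 (0.0688 to 0.0889). The summed level of 8 astrocyte markers was 1039 to 1058 RPKM in MFN2-R94Q:MFN1, 990 to 1066 RPKM in MFN2-R94Q and 1029 to 1058 RPKM in nTg. The log2 fold changes of the single markers ran from -0.29 to 0.40 in MFN2-R94Q against nTg. In MFN2-R94Q:MFN1 against MFN2-R94Q they ran from -0.50 to 0.55. The part of astrocytes in the Mertk values was not tested.

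**Figure D2:**
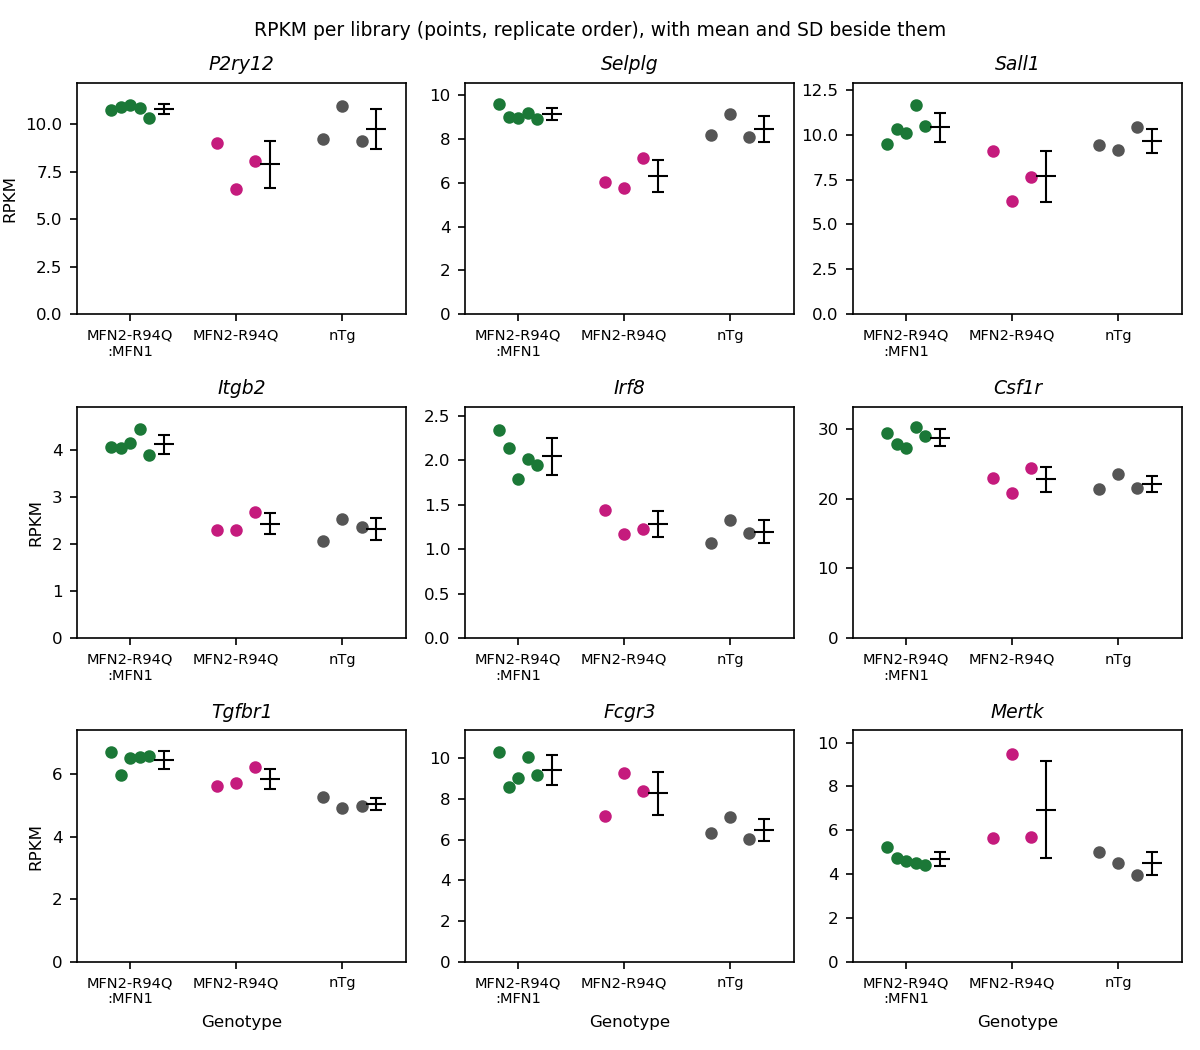
RPKM in each library for 9 microglia genes (points in replicate order, with the mean and SD at the right of each group), on axes that start at 0. P2ry12, Selplg and Sall1 are lowest in MFN2-R94Q. Itgb2, Irf8 and Csf1r are highest in MFN2-R94Q:MFN1, Tgfbr1 and Fcgr3 are above nTg in both transgenic groups, and Mertk is highest in MFN2-R94Q, where replicate 2 is at 9.49 RPKM.

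The surface and secreted markers by which resting microglia are often recognised were Tmem119, Selplg, Olfml3, Siglech, Fcrls and Slc2a5. Of the 6, 5 were higher in MFN2-R94Q:MFN1 than in MFN2-R94Q, against 9.55% of all genes, and none passed against nTg. Tmem119, a membrane protein that marks microglia, was at 9.84, 8.71, 8.63, 9.02 and 8.55 RPKM in MFN2-R94Q:MFN1 libraries, 6.65, 7.56 and 8.21 RPKM in MFN2-R94Q libraries, and 8.27, 8.12 and 8.47 RPKM in nTg libraries. Selplg, the ligand of P-selectin, was at 9.57, 8.998, 8.94, 9.19 and 8.898 RPKM in MFN2-R94Q:MFN1 libraries, 6.01, 5.78 and 7.13 RPKM in MFN2-R94Q libraries, and 8.17, 9.15 and 8.08 RPKM in nTg libraries. All MFN2-R94Q values of Selplg were below all others, while those of Tmem119 overlapped nTg. The log2 fold change of Selplg was -0.40 in MFN2-R94Q against nTg (SE 0.07, limma adjusted p = 0.00367), and it was the 1 member called there that kept its call under all 22 alternatives tried. Selplg was higher in MFN2-R94Q:MFN1 than in MFN2-R94Q at 0.50 (SE 0.06, adjusted p = 0.000836). Tmem119 was higher at 0.25 (SE 0.06, adjusted p = 0.0217, and 0.0587 without MFN2-R94Q replicate 1), and its value in MFN2-R94Q against nTg was -0.14 (adjusted p = 0.156, and 0.0499 without MFN2-R94Q replicate 3).

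Fcrls, a scavenger receptor of the Fc receptor-like family, had the largest log2 fold change of the 31 in MFN2-R94Q:MFN1 against MFN2-R94Q. It was at 5.17, 5.43, 4.66, 5.02 and 5.12 RPKM in MFN2-R94Q:MFN1 libraries, 3.096, 1.497 and 3.54 RPKM in MFN2-R94Q libraries, and 2.95, 4.13 and 2.84 RPKM in nTg libraries. Olfml3, a secreted olfactomedin-like protein, was at 8.97, 8.47, 7.99, 9.42 and 8.21 RPKM in MFN2-R94Q:MFN1 libraries, 6.31, 3.86 and 6.21 RPKM in MFN2-R94Q libraries, and 6.87, 7.801 and 6.48 RPKM in nTg libraries. In both genes every MFN2-R94Q:MFN1 value was above all others and MFN2-R94Q replicate 2 was the lowest of the 11. The log2 fold change against MFN2-R94Q was 0.86 for Fcrls (SE 0.18, limma adjusted p = 0.0109) and 0.64 for Olfml3 (SE 0.12, adjusted p = 0.00735). Without MFN2-R94Q replicate 2 these were 0.55 (adjusted p = 0.0101) and 0.43 (adjusted p = 0.0041). Against nTg, Fcrls was at 0.57 (adjusted p = 0.147) and Olfml3 at 0.27 (0.304). With that library left out of the spread they passed there, at adjusted p = 0.0037 and 0.0254. In MFN2-R94Q against nTg, Olfml3 was at -0.37 (adjusted p = 0.0783) and passed without MFN2-R94Q replicate 1 or 3 (0.0325 to 0.0434), but was -0.16 (0.203) without MFN2-R94Q replicate 2.

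Siglech, a sialic acid-binding lectin, was at 4.48, 4.74, 4.43, 4.19 and 4.41 RPKM in MFN2-R94Q:MFN1 libraries, 3.95, 3.55 and 3.95 RPKM in MFN2-R94Q libraries, and 3.58, 3.93 and 3.88 RPKM in nTg libraries. Its MFN2-R94Q:MFN1 values were above all others by a small margin, with a log2 fold change of 0.20 against MFN2-R94Q (limma adjusted p = 0.0307). Leaving out MFN2-R94Q replicate 2 or MFN2-R94Q:MFN1 replicate 1, 2, 3 or 5 ended it (0.0504 to 0.128), and the one against nTg was gained without MFN2-R94Q replicate 2 (0.0324). Slc2a5, a fructose transporter, was at 1.17, 1.15, 1.05, 0.918 and 1.07 RPKM in MFN2-R94Q:MFN1 libraries, 0.864, 0.701 and 1.02 RPKM in MFN2-R94Q libraries, and 0.956, 1.27 and 1.22 RPKM in nTg libraries. All 3 groups overlapped, and its 95% interval in MFN2-R94Q:MFN1 against nTg was -0.27 to 0.13. In MFN2-R94Q against nTg it was at -0.28 (adjusted p = 0.0776) and passed without nTg replicate 1 or MFN2-R94Q replicate 3 (0.0383 to 0.0466).

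The transcription factors were Sall1, Spi1, Irf8, Ikzf1 and Runx1. In MFN2-R94Q:MFN1, 3 of the 4 tested were higher than in MFN2-R94Q and 2 of 4 than in nTg, against 9.55% and 2.09% of all genes. Sall1, which holds microglia in their resting state, was at 9.45, 10.3, 10.1, 11.7 and 10.5 RPKM in MFN2-R94Q:MFN1 libraries, 9.11, 6.28 and 7.64 RPKM in MFN2-R94Q libraries, and 9.41, 9.15 and 10.4 RPKM in nTg libraries. All MFN2-R94Q values were below all others, though MFN2-R94Q replicate 1 came close to the lowest nTg value. Sall1 fell in MFN2-R94Q, with a log2 fold change of -0.33 relative to nTg (SE 0.10, limma adjusted p = 0.0467). That call was lost when any library other than MFN2-R94Q replicate 1 or MFN2-R94Q:MFN1 replicate 4 was left out (log2 fold changes of -0.36 to -0.20, adjusted p of 0.0509 to 0.146). Sall1 was higher in MFN2-R94Q:MFN1 than in MFN2-R94Q at 0.43 (SE 0.09, adjusted p = 0.0128), and against nTg its 95% interval was -0.10 to 0.30.

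Irf8, an interferon regulatory factor needed for microglia to form, was at 2.35, 2.14, 1.79, 2.01 and 1.95 RPKM in MFN2-R94Q:MFN1 libraries, 1.44, 1.17 and 1.23 RPKM in MFN2-R94Q libraries, and 1.07, 1.33 and 1.18 RPKM in nTg libraries. Spi1, which encodes PU.1, was at 2.33, 2.18, 1.98, 2.08 and 2.58 RPKM in MFN2-R94Q:MFN1 libraries, 1.39, 1.51 and 1.402 RPKM in MFN2-R94Q libraries, and 1.58, 1.92 and 1.63 RPKM in nTg libraries. Both genes had every MFN2-R94Q:MFN1 value above all others. Irf8 rose at a log2 fold change of 0.51 against MFN2-R94Q (SE 0.08, limma adjusted p = 0.00302) and 0.59 against nTg (SE 0.08, adjusted p = 0.00153). Spi1 rose at 0.50 against MFN2-R94Q (adjusted p = 0.00286) and was at 0.31 against nTg (0.0617, and 0.0437 without MFN2-R94Q replicate 2). Its MFN2-R94Q values were all below nTg, at -0.19 (0.141).

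Ikzf1, the lymphoid and myeloid factor Ikaros, was at 1.07, 0.831, 0.944, 1.03 and 0.936 RPKM in MFN2-R94Q:MFN1 libraries, 0.8004, 0.741 and 0.865 RPKM in MFN2-R94Q libraries, and 0.663, 0.648 and 0.657 RPKM in nTg libraries. The groups were ordered with MFN2-R94Q:MFN1 highest and nTg lowest, with overlap between the transgenic groups. It passed in MFN2-R94Q:MFN1 against nTg at 0.34 (SE 0.07, limma adjusted p = 0.0229), a call lost without any 1 of the nTg libraries or MFN2-R94Q:MFN1 replicate 1 or 4 (0.0535 to 0.0923). Runx1, the lowest of the 33, was under the filter at 0.197, 0.213, 0.219, 0.263 and 0.2405 RPKM in MFN2-R94Q:MFN1 libraries, 0.168, 0.226 and 0.196 RPKM in MFN2-R94Q libraries, and 0.1404, 0.184 and 0.141 RPKM in nTg libraries. Its MFN2-R94Q:MFN1 values were above nTg and overlapped MFN2-R94Q.

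Of the integrins and leukocyte membrane proteins, all 7 tested genes were higher in MFN2-R94Q:MFN1 than in MFN2-R94Q, against 9.55% of all genes. Relative to nTg, 5 of 7 were higher in MFN2-R94Q:MFN1, against 2.09% of all genes. Their summed level was 50.5 to 57.3 RPKM in MFN2-R94Q:MFN1, 30.1 to 37.8 RPKM in MFN2-R94Q and 33.6 to 36.7 RPKM in nTg. Itgb2, the beta chain shared by leukocyte integrins (chr10:77530252-77565708), was at 4.06, 4.04, 4.14, 4.43 and 3.89 RPKM in MFN2-R94Q:MFN1 libraries, 2.302, 2.29 and 2.68 RPKM in MFN2-R94Q libraries, and 2.06, 2.52 and 2.36 RPKM in nTg libraries. Itgam, the chain called CD11b in immunostaining and the partner of Itgb2 in a complement receptor, was at 5.92, 5.64, 5.92, 5.94 and 5.45 RPKM in MFN2-R94Q:MFN1 libraries, 4.21, 2.93 and 4.18 RPKM in MFN2-R94Q libraries, and 4.22, 4.75 and 4.79 RPKM in nTg libraries. Both were higher in every MFN2-R94Q:MFN1 library than in any other, and for Itgam the MFN2-R94Q values were all below nTg. Itgb2 had the largest log2 fold change of the 31 against nTg, at 0.72 (SE 0.07, limma adjusted p = 5.47e-05), and 0.66 against MFN2-R94Q (SE 0.07, adjusted p = 0.000253). Itgam was at 0.57 against MFN2-R94Q (SE 0.09, adjusted p = 0.00302). It was at 0.30 against nTg (adjusted p = 0.119, and 0.0035 without MFN2-R94Q replicate 2) and at -0.26 in MFN2-R94Q against nTg (0.08498). That last value passed without MFN2-R94Q replicate 1 or 3 (0.0378 to 0.0473) and was -0.11 (0.245) without MFN2-R94Q replicate 2. Exons of Itgam share 3450 bases with those of the predicted gene Gm49368 on the same strand.

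Laptm5, a lysosomal membrane protein of blood-derived and microglial cells (chr4:130913125-130936141), was the second highest of the 33 in each group. It was at 20.1, 19.3, 19.5, 21.1 and 20.4 RPKM in MFN2-R94Q:MFN1 libraries, 14.7, 12.8 and 14.8 RPKM in MFN2-R94Q libraries, and 12.98, 14.1 and 12.8 RPKM in nTg libraries. Ly86, a secreted partner of a Toll-like receptor homologue, was at 13.9, 13.8, 15.5, 16.7 and 12.8 RPKM in MFN2-R94Q:MFN1 libraries, 9.36, 7.32 and 9.75 RPKM in MFN2-R94Q libraries, and 8.46, 9.39 and 9.201 RPKM in nTg libraries. In both genes MFN2-R94Q:MFN1 stood apart from the other groups, which overlapped. Laptm5 was 1.41-fold higher than in MFN2-R94Q (log2 0.50, SE 0.05, limma adjusted p = 0.000304) and 1.49-fold higher than in nTg (log2 0.57, SE 0.05, adjusted p = 3.88e-05). Ly86 was 1.62-fold higher than in MFN2-R94Q (log2 0.69, SE 0.09, adjusted p = 0.00127) and 1.57-fold higher than in nTg (log2 0.65, adjusted p = 0.00173).

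Aif1, which encodes the microglial stain IBA1, was at 4.75, 4.78, 4.73, 5.53 and 4.72 RPKM in MFN2-R94Q:MFN1 libraries, 3.73, 2.698 and 3.38 RPKM in MFN2-R94Q libraries, and 3.45, 3.12 and 3.66 RPKM in nTg libraries. Ptprc, the pan-leukocyte phosphatase CD45, was at 1.48, 1.18, 1.12, 1.104 and 0.998 RPKM in MFN2-R94Q:MFN1 libraries, 0.835, 0.535 and 0.841 RPKM in MFN2-R94Q libraries, and 0.673, 0.786 and 0.657 RPKM in nTg libraries. Cd53, a tetraspanin, was at 2.53, 2.53, 2.57, 2.53 and 2.29 RPKM in MFN2-R94Q:MFN1 libraries, 2.04, 1.52 and 2.16 RPKM in MFN2-R94Q libraries, and 1.75, 1.96 and 2.07 RPKM in nTg libraries. All 3 genes had every MFN2-R94Q:MFN1 value above all others, and MFN2-R94Q replicate 2 was the lowest of the 11 in each. Aif1 was at 0.53 against MFN2-R94Q (limma adjusted p = 0.003095) and 0.47 against nTg (0.00925, and 0.0643 without nTg replicate 2). Ptprc was at 0.44 against MFN2-R94Q (0.0185, and 0.0774 without MFN2-R94Q replicate 2) and 0.47 against nTg (0.0338), and the second call was lost without any 1 of the nTg libraries or MFN2-R94Q:MFN1 replicate 1, 2, 3 or 4 (0.0585 to 0.141). Cd53 was at 0.32 against MFN2-R94Q (0.0251). That was 0.20 (0.0938) without MFN2-R94Q replicate 2 and was also lost without MFN2-R94Q:MFN1 replicate 2 (0.0538). Against nTg, Cd53 was at 0.30 (0.0887, and 0.0109 without MFN2-R94Q replicate 2).

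Markers of other leukocytes were near the floor of the data. All 11 lymphocyte markers were under the filter, with summed levels of 0.641 to 0.729 RPKM in MFN2-R94Q:MFN1, 0.243 to 0.295 RPKM in MFN2-R94Q and 0.317 to 0.594 RPKM in nTg. These sums were highest in MFN2-R94Q:MFN1, as were those of the leukocyte genes, and their part in the result was not tested. All 12 monocyte and neutrophil markers were under the filter as well, with sums of 0.629 to 1.26 RPKM in MFN2-R94Q:MFN1, 0.863 to 3.34 RPKM in MFN2-R94Q and 0.619 to 1.40 RPKM in nTg. Of 10 markers of border-associated macrophages 9 were under the filter, with sums of 2.29 to 2.39 RPKM in MFN2-R94Q:MFN1, 2.17 to 2.72 RPKM in MFN2-R94Q and 2.40 to 2.71 RPKM in nTg, and all MFN2-R94Q:MFN1 sums were below all nTg sums. No marker of these 3 lists was at 0 in all 11 libraries.

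The Fc receptor chains and the Toll-like receptor chaperone were Fcer1g, Fcgr3 and Unc93b1. All 3 were higher in MFN2-R94Q:MFN1 than in nTg, and 2 of 3 than in MFN2-R94Q, against 2.09% and 9.55% of all genes. Fcer1g, the signalling chain shared by Fc receptors, was at 13.1, 13.3, 14.1, 15.6 and 12.8 RPKM in MFN2-R94Q:MFN1 libraries, 9.22, 6.996 and 8.98 RPKM in MFN2-R94Q libraries, and 8.38, 9.94 and 8.99 RPKM in nTg libraries. Unc93b1, which carries Toll-like receptors to endosomes, was at 9.001, 9.62, 9.46, 9.43 and 8.81 RPKM in MFN2-R94Q:MFN1 libraries, 6.59, 6.27 and 6.92 RPKM in MFN2-R94Q libraries, and 6.42, 6.65 and 7.27 RPKM in nTg libraries. For both genes MFN2-R94Q:MFN1 was above all other libraries, and the other groups overlapped. Fcer1g was 1.61-fold higher than in MFN2-R94Q (log2 0.69, SE 0.09, limma adjusted p = 0.000924) and 1.49-fold higher than in nTg (log2 0.57, SE 0.09, adjusted p = 0.00279). Unc93b1 was 1.38-fold higher than in MFN2-R94Q (log2 0.46, adjusted p = 0.00039) and 1.34-fold higher than in nTg (log2 0.43, adjusted p = 0.000345).

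Fcgr3, a low-affinity receptor for immunoglobulin G, followed another order. It was at 10.3, 8.61, 9.02, 10.1 and 9.19 RPKM in MFN2-R94Q:MFN1 libraries, 7.15, 9.29 and 8.395 RPKM in MFN2-R94Q libraries, and 6.31, 7.104 and 6.02 RPKM in nTg libraries. Both transgenic groups lay above nTg and overlapped each other. The log2 fold change against nTg was 0.51 in MFN2-R94Q:MFN1 (SE 0.08, limma adjusted p = 0.00385) and 0.33 in MFN2-R94Q (SE 0.09, adjusted p = 0.0265). The call in MFN2-R94Q did not hold when MFN2-R94Q replicate 2 or 3 or nTg replicate 1 or 3 was left out (log2 fold changes of 0.24 to 0.31, adjusted p of 0.0576 to 0.0918). Reads of Fcgr3 could be divided with other Fc gamma receptor genes, since the sources used here give no rule for reads that match several genes.

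The eicosanoid enzymes were Hpgds, which makes prostaglandin D, and Ltc4s, which makes leukotriene C. Hpgds was at 1.595, 1.85, 2.11, 2.04 and 1.83 RPKM in MFN2-R94Q:MFN1 libraries, 1.45, 1.26 and 1.36 RPKM in MFN2-R94Q libraries, and 1.25, 1.33 and 1.36 RPKM in nTg libraries. Ltc4s was at 2.17, 2.06, 2.16, 1.66 and 2.15 RPKM in MFN2-R94Q:MFN1 libraries, 1.78, 2.78 and 2.14 RPKM in MFN2-R94Q libraries, and 1.91, 2.16 and 2.01 RPKM in nTg libraries. Hpgds was higher in every MFN2-R94Q:MFN1 library than in any other, whereas the Ltc4s groups overlapped. Hpgds rose at a log2 fold change of 0.36 against MFN2-R94Q (SE 0.07, limma adjusted p = 0.0109) and 0.39 against nTg (SE 0.07, adjusted p = 0.0134, and 0.0531 to 0.0789 without nTg replicate 1 or 2). The 95% interval for Ltc4s was -0.32 to 0.13 against MFN2-R94Q and -0.22 to 0.23 against nTg, at levels of about 39 to 106 reads per library.

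**Figure D3:**
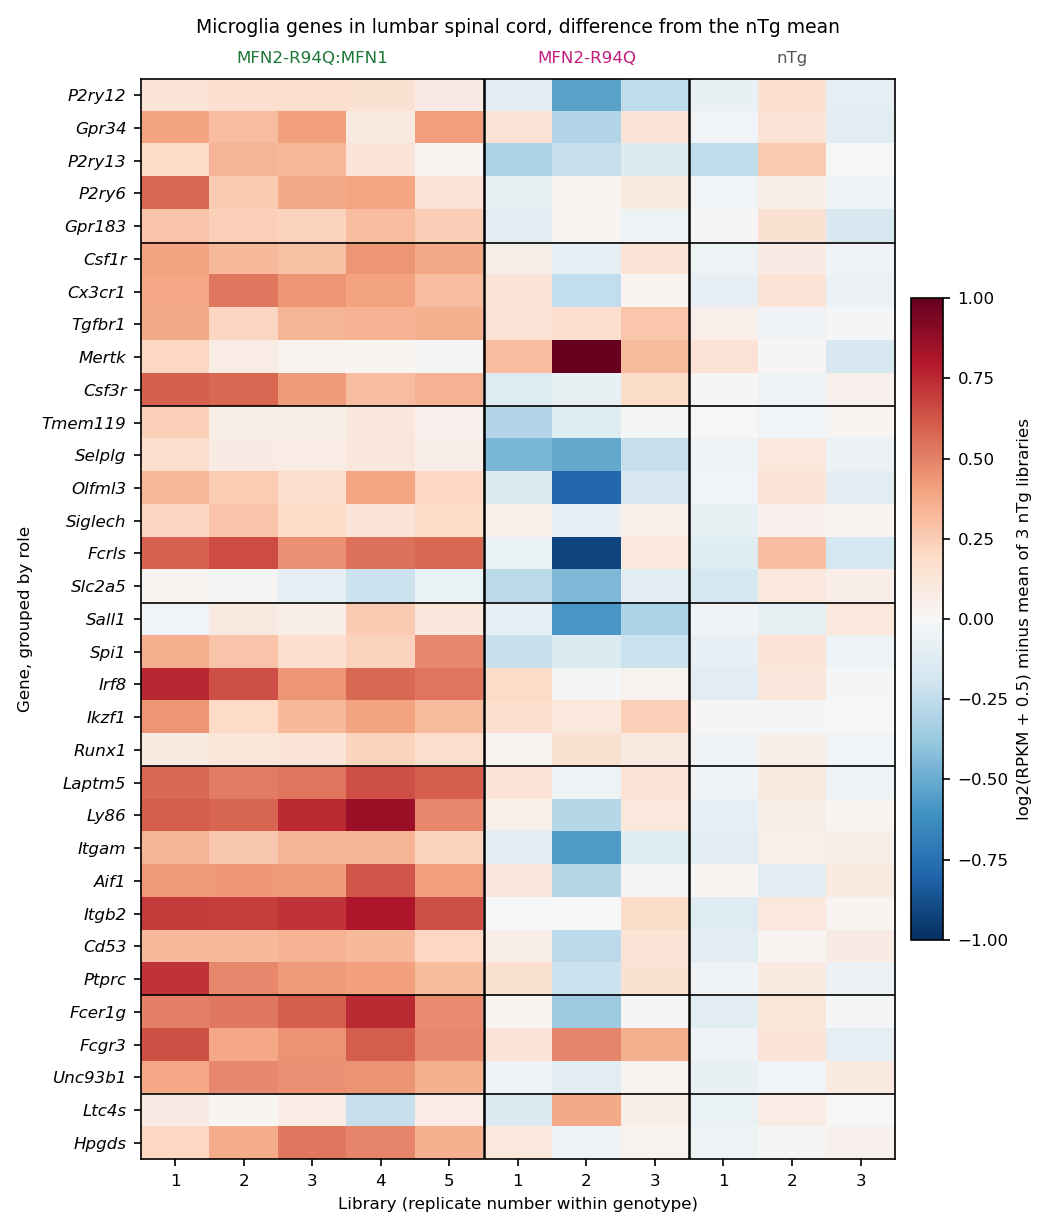
Difference of log2(RPKM + 0.5) from the mean of the 3 nTg libraries for all 33 microglia genes (rows, grouped by role) in each of the 11 libraries (columns); the colour scale ends at -1 and 1. The 5 MFN2-R94Q:MFN1 columns are red for most genes, and MFN2-R94Q replicate 2 holds the lowest value of the 11 libraries for 18 of the 33 genes and the highest for 2 (Mertk and Ltc4s).

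The 3 MFN2-R94Q libraries differed among themselves. Replicate 2 was the lowest of the 3 for 22 of the 33 genes and the lowest of all 11 for 18. It was the highest of all 11 for 2, Mertk and Ltc4s. These positions were not counted over all tested genes, where MFN2-R94Q replicate 2 also stood apart. The proportions of the members to each other also differed between groups. The ratio of the summed integrin and leukocyte genes to the summed surface and secreted markers was 1.42 ± 0.0787 in MFN2-R94Q:MFN1, 1.32 ± 0.0623 in MFN2-R94Q and 1.10 ± 0.0420 in nTg, as mean and SD. Every library of the transgenic groups lay above every nTg library, whose highest ratio was 1.15 against lowest values of 1.35 in MFN2-R94Q:MFN1 and 1.26 in MFN2-R94Q. The ratio of Itgb2 to P2ry12 was 0.382 ± 0.0145 in MFN2-R94Q:MFN1, 0.312 ± 0.0498 in MFN2-R94Q and 0.238 ± 0.0187 in nTg, and the MFN2-R94Q range of 0.255 to 0.349 reached the highest nTg value of 0.259. These ratios were chosen after the values were seen and are given without a test. By mean level P2ry12 ranked at place 6 of the 33 in MFN2-R94Q:MFN1, 7 in MFN2-R94Q and 4 in nTg, where its range overlapped that of Cx3cr1 at place 3.

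Genes for ligands of the member receptors, or for enzymes that act on such ligands, were measured in the same libraries, and 10 of 11 were tested. Of these, 2 were higher in MFN2-R94Q:MFN1 than in MFN2-R94Q, 2 were higher in MFN2-R94Q:MFN1 than in nTg, and 1 was higher and 2 were lower in MFN2-R94Q than in nTg. Over all tested genes the shares were 9.55% and 2.09% higher in the first and second of these comparisons, and 7.50% higher and 10.4% lower in the third. Cx3cl1, the fractalkine that neurons present to Cx3cr1, was at 65.6, 65.3, 61.2, 62.1 and 63.8 RPKM in MFN2-R94Q:MFN1 libraries, 57.8, 53.2 and 61.9 RPKM in MFN2-R94Q libraries, and 70.5, 70.3 and 68.05 RPKM in nTg libraries. All nTg values were above those of both transgenic groups. Cx3cl1 fell in MFN2-R94Q, with a log2 value of -0.27 relative to nTg (SE 0.05, limma adjusted p = 0.00431) and was higher in MFN2-R94Q:MFN1 than in MFN2-R94Q at 0.14 (adjusted p = 0.0491), a call lost when any library other than MFN2-R94Q replicate 3 was left out (0.0505 to 0.197), with 0.09 without MFN2-R94Q replicate 2. Against nTg, MFN2-R94Q:MFN1 was at -0.13 (0.171, and 0.0428 without MFN2-R94Q replicate 2).

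Csf1r has the ligands Csf1 and Il34. Csf1 was at 13.8 ± 1.03 RPKM in MFN2-R94Q:MFN1 (SD, n = 5), 12.5 ± 1.37 RPKM in MFN2-R94Q (n = 3) and 11.04 ± 0.8599 RPKM in nTg (n = 3). It was higher in MFN2-R94Q:MFN1 than in nTg at 0.31 (limma adjusted p = 0.0468), a call lost without any 1 of the nTg libraries, MFN2-R94Q replicate 3 or MFN2-R94Q:MFN1 replicate 1, 3, 4 or 5 (0.0512 to 0.230). Il34 averaged 6.85 ± 0.621 RPKM in MFN2-R94Q:MFN1, 6.83 ± 0.315 RPKM in MFN2-R94Q and 7.03 ± 0.163 RPKM in nTg, and passed in no comparison. Csf3, the ligand of Csf3r, was under the filter, with a highest library value of 0.0271 RPKM.

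Of the ligands of Tgfbr1, Tgfb1 was higher in MFN2-R94Q:MFN1 than in MFN2-R94Q at 0.26 (limma adjusted p = 0.0276), with means of 2.405 ± 0.149 RPKM in MFN2-R94Q:MFN1, 1.93 ± 0.173 RPKM in MFN2-R94Q and 1.93 ± 0.186 RPKM in nTg. The call was lost without MFN2-R94Q replicate 1 or 2 or MFN2-R94Q:MFN1 replicate 2 or 4 (0.0576 to 0.0799). Tgfb3 was lower in MFN2-R94Q than in nTg at -0.24 (0.0348), and that call was lost without any 1 of the nTg libraries or MFN2-R94Q replicate 1 or 2 (0.0700 to 0.101). Tgfb3 in MFN2-R94Q:MFN1 against MFN2-R94Q was at 0.20 (0.0549) and passed without MFN2-R94Q replicate 3 or MFN2-R94Q:MFN1 replicate 3 (0.0170 to 0.0262). Tgfb2 passed in no comparison, with log2 fold changes of 0.19 against MFN2-R94Q and 0.22 against nTg.

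Pros1, which encodes protein S, a bridge from dying cells to Mertk, was at 8.22 ± 0.268 RPKM in MFN2-R94Q:MFN1, 7.71 ± 0.494 RPKM in MFN2-R94Q and 6.56 ± 0.4297 RPKM in nTg. It was higher than nTg at 0.31 in MFN2-R94Q:MFN1 (SE 0.05, limma adjusted p = 0.00516) and at 0.22 in MFN2-R94Q (adjusted p = 0.0213, and 0.0659 to 0.0770 when MFN2-R94Q replicate 2 or nTg replicate 1 or 3 was left out). Gas6, the other bridging ligand of Mertk, passed in no comparison, with a 95% interval of -0.14 to 0.08 against MFN2-R94Q. Ch25h and Cyp7b1, enzymes of the oxysterols that Gpr183 senses, passed in none either, at 0.26 and 0.13 against nTg.

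Of 16 other genes of the transforming growth factor beta pathway, 1 was higher and none lower in MFN2-R94Q:MFN1 than in MFN2-R94Q, none passed against nTg, and 2 were higher and 1 lower in MFN2-R94Q than in nTg. These counts are near the shares of all tested genes, which were 9.55% higher and 3.33% lower with MFN1 against MFN2-R94Q, and 7.50% higher and 10.4% lower in MFN2-R94Q against nTg. Eng, a co-receptor best known from endothelium, was at 6.57 ± 0.334 RPKM in MFN2-R94Q:MFN1, 5.29 ± 0.398 RPKM in MFN2-R94Q and 6.79 ± 0.574 RPKM in nTg. It was higher at 0.29 in MFN2-R94Q:MFN1 against MFN2-R94Q (limma adjusted p = 0.0117) and lower at -0.33 in MFN2-R94Q against nTg (0.00828). Itgb8, an integrin chain that frees the active ligand, and Ski, a repressor of the pathway, were higher in MFN2-R94Q than in nTg at 0.43 (0.00471) and 0.31 (0.0406). Without MFN2-R94Q replicate 2 Itgb8 also passed in MFN2-R94Q:MFN1 against nTg, at 0.26 (0.00349). The call of Ski was lost without any 1 of the nTg libraries, MFN2-R94Q replicate 2 or MFN2-R94Q:MFN1 replicate 2, 3 or 5 (0.0525 to 0.134), and its value was 0.17 without MFN2-R94Q replicate 2. Smad3, a signal transducer of the pathway, was at -0.27 in MFN2-R94Q:MFN1 against MFN2-R94Q (0.117), at -0.10 (0.496) without MFN2-R94Q replicate 2, and passed without MFN2-R94Q replicate 1 (0.0206). The receptors Tgfbr2, Tgfbr3 and Acvrl1 were at 0.18 (0.126), -0.08 (0.388) and 0.20 (0.0898) there, and Acvrl1 passed without MFN2-R94Q:MFN1 replicate 3 (0.0266). Nrros, which holds the latent ligand on microglia, had 1.02 ± 0.247 RPKM in MFN2-R94Q:MFN1, 1.84 ± 0.824 RPKM in MFN2-R94Q and 1.16 ± 0.299 RPKM in nTg and did not pass, at -0.58 in MFN2-R94Q:MFN1 against MFN2-R94Q (0.0651). The value of Nrros was -0.31 (0.285) without MFN2-R94Q replicate 2, and it passed without MFN2-R94Q replicate 1 or MFN2-R94Q:MFN1 replicate 1 (0.0114 to 0.0450).

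Of 6 tested genes in a list of signals between neurons and microglia, none passed in either comparison of MFN2-R94Q:MFN1. In MFN2-R94Q against nTg 1 was lower, Cd24a, at -0.27 (limma adjusted p = 0.008503). Over all tested genes 9.55% were higher and 3.33% lower in MFN2-R94Q:MFN1 against MFN2-R94Q, and 2.09% and 0.223% against nTg. In MFN2-R94Q against nTg 7.50% were higher and 10.4% lower, so the counts of the 6 genes are near these shares. Cd200, which quiets microglia through its receptor, had a 95% interval of -0.03 to 0.15 in MFN2-R94Q:MFN1 against MFN2-R94Q, and Sirpa, the myeloid receptor for Cd47, one of -0.01 to 0.12. Cd47 itself was at -0.13 in MFN2-R94Q:MFN1 against nTg (0.3697) and Hmgb1 at 0.14 in MFN2-R94Q against nTg (0.05204, and 0.0318 without MFN2-R94Q replicate 3).

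Of 48 other tested microglia genes outside the 33, 30 were higher and none lower in MFN2-R94Q:MFN1 than in MFN2-R94Q, with a median log2 fold change of 0.25, and 23 were higher and none lower than in nTg, with a median of 0.30. In MFN2-R94Q against nTg 6 were higher and 3 lower, with a median of 0.05. Over all tested genes 9.55% were higher in the first comparison and 2.09% in the second, while 7.50% were higher and 10.4% lower in the third, where the counts of the 48 are near those shares. Without MFN2-R94Q replicate 2, 21 of the 48 were higher and none lower in the first comparison, with a median of 0.22. That compares with 5.08% of all genes higher. In the second comparison 26 of the 48 were then higher, against 3.34% of all genes. The third then had 6 of the 48 higher and 3 lower, against 4.31% and 6.98% of all genes. The lysosomal genes Ctss and Cd68 were higher in MFN2-R94Q than in nTg at 0.29 (0.00957) and 0.36 (limma adjusted p = 0.00742), and in MFN2-R94Q:MFN1 than in MFN2-R94Q at 0.45 (0.000895) and 0.55 (0.000712). P2rx4, an ATP-gated channel, was lower in MFN2-R94Q than in nTg at -0.30 (0.003600) and higher in MFN2-R94Q:MFN1 than in MFN2-R94Q at 0.27 (0.00416), the pattern of P2ry12, Selplg and Sall1. Tyrobp, the adaptor of Trem2, was higher in MFN2-R94Q:MFN1 than in MFN2-R94Q at 0.76 (1.81e-06), Trem2 at 0.51 (0.000831), the complement gene C1qa at 0.62 (0.000569) and Nckap1l, an actin regulator, at 0.20 (0.0255). The call of Nckap1l was lost without MFN2-R94Q replicate 2 or MFN2-R94Q:MFN1 replicate 1 (0.0525 to 0.102).

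Of 25 genes raised in disease associated microglia, 19 were higher and 1 lower in MFN2-R94Q:MFN1 than in MFN2-R94Q. Over all tested genes these shares were 9.55% and 3.33%. In MFN2-R94Q:MFN1 against nTg 21 were higher and none lower, against 2.09% and 0.223% of all genes. In MFN2-R94Q against nTg 10 were higher and 1 lower, against 7.50% and 10.4% of all genes. The median log2 fold changes of the 25 in these comparisons were 0.37, 0.51 and 0.15, against 0.44, 0.34 and -0.02 for the 31 tested homeostatic genes. Without MFN2-R94Q replicate 2 the first comparison had 17 of the 25 higher and none lower, against 5.08% of all genes higher. Lyz2, lysozyme, was at 22.2 ± 1.62 RPKM in MFN2-R94Q:MFN1 (SD, n = 5), 11.3 ± 1.55 RPKM in MFN2-R94Q (n = 3) and 7.05 ± 0.599 RPKM in nTg (n = 3). In MFN2-R94Q:MFN1 against nTg, Lyz2 was at 1.59 (limma adjusted p = 4.76e-07), Lgals3, galectin-3, at 1.98 (7.64e-08), Cst7, a cystatin, at 1.57 (4.44e-06), and Cd52 at 1.07 (0.000189). In the same comparison the chemokine Ccl4 was at 0.96 (8.68e-05), Gpnmb at 1.16 (2.23e-06) and the integrin chain Itgax, a partner of Itgb2, at 1.24 (4.44e-06).

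**Figure D4:**
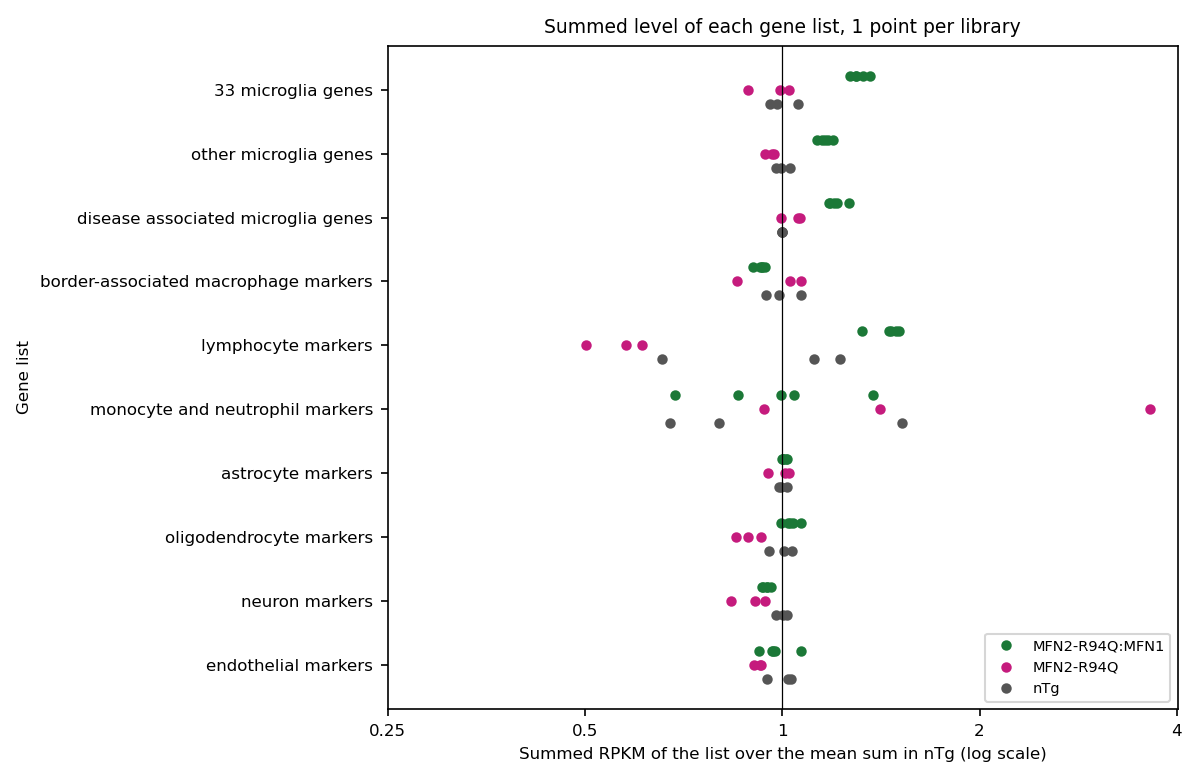
Summed RPKM of each gene list in each library, divided by the mean sum of the 3 nTg libraries, on a log axis; 1 point per library, coloured by genotype. The 33 microglia genes (top row) lie above 1 in all 5 MFN2-R94Q:MFN1 libraries and the MFN2-R94Q points lie on both sides of 1; the monocyte and neutrophil sums reach 3.34 RPKM at most.

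Markers of the other main cell types of the cord were compared beside the microglia genes. The summed level of 9 oligodendrocyte markers was 4211 to 4522 RPKM in MFN2-R94Q:MFN1, 3599 to 3927 RPKM in MFN2-R94Q and 4048 to 4385 RPKM in nTg. The summed level of 9 neuron markers was 2768 to 2859 RPKM in MFN2-R94Q:MFN1, 2484 to 2797 RPKM in MFN2-R94Q and 2909 to 3026 RPKM in nTg. That of 7 endothelial markers was 74.1 to 85.9 RPKM in MFN2-R94Q:MFN1, 72.8 to 74.5 RPKM in MFN2-R94Q and 76.3 to 83.0 RPKM in nTg. The oligodendrocyte sums were lowest in MFN2-R94Q, as were P2ry12, Selplg and Sall1, and their part in those values was not tested. In MFN2-R94Q:MFN1 against nTg, where 15 of the 31 microglia genes were higher, no oligodendrocyte, neuron or astrocyte marker passed and 1 of 7 endothelial markers was higher. Over all tested genes 2.09% were higher and 0.223% lower in that comparison. Without MFN2-R94Q replicate 2, 1 astrocyte, 1 oligodendrocyte and 1 endothelial marker were higher there, and 1 oligodendrocyte and 1 neuron marker were lower. Among all 14325 genes then tested, 478 (3.34%) were higher and 111 were lower. Markers of other cells passed as well in MFN2-R94Q:MFN1 against MFN2-R94Q, where 24 of the 31 were higher. There 6 of 9 oligodendrocyte, 2 of 8 astrocyte, 2 of 7 endothelial and 1 of 9 neuron markers were higher, and 1 astrocyte and 1 neuron marker were lower. Over all tested genes 9.55% were higher and 3.33% lower, and the share of neuron markers higher was near the first of these. Without MFN2-R94Q replicate 2, 4 oligodendrocyte and 1 astrocyte marker were higher, 1 astrocyte and 1 neuron marker were lower, and no endothelial marker passed. Among all 14325 genes then tested, 727 (5.08%) were higher and 155 were lower. Of the same markers, 4 of 9 oligodendrocyte, 4 of 9 neuron, 3 of 7 endothelial and 1 of 8 astrocyte were lower in MFN2-R94Q than in nTg. In that comparison 1 oligodendrocyte, 1 neuron, 1 endothelial and 2 astrocyte markers were higher. Over all tested genes 10.4% were lower and 7.50% higher, and the counts of 1 were near these shares. Without MFN2-R94Q replicate 2, 2 oligodendrocyte, 2 neuron and 2 endothelial markers were lower, and 1 oligodendrocyte, 1 endothelial and 1 astrocyte marker were higher. Among all genes 6.98% were then lower and 4.31% higher. The part of these cell types in the microglia values was not tested.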

How the data were processed

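RNA from the lumbar cord of 11 mice was sequenced with a stranded mRNA kit, per the labels' protocols. The deposited table gives 1 column per library in RPKM, made by the authors. TopHat, Partek 7.17.0918 and the mouse build mm10 are named in the submitters' processing notes; the sources used here do not state the gene annotation, the treatment of reads that match several genes, the use of strand or the sequencing batches. Depth was read from the steps of low values of 283 short genes, so it is an estimate. Among the gene names 25 are written as dates, and none of them is a member.

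Values were used as log2(RPKM + 0.5), computed from the deposited RPKM; fold changes on that scale understate the change of low genes. Genes at 0.5 RPKM or more in at least 3 libraries were fitted in limma 3.58.1 (R 4.3.3) with 1 mean per genotype over all 11 libraries and a trend in the variance, with Benjamini-Hochberg adjustment over all 14347 genes in each of 3 comparisons and a threshold of 0.05. The script was tested on simulated data. The labels do not say how the mice were drawn, so p-values measure the spread between these libraries. Alternatives covered the pseudocount, filter, scaling, model, threshold and each library left out. The members and lists were chosen with earlier results of these data known. Values in every library are given for members that passed against nTg, the 6 with the largest and the 6 with the smallest fold change between the transgenic groups, those that did not pass there, and the highest of each role group; the remaining members were added. Ligands are all named, and other pathway lists by up to 4 genes with the smallest p per comparison. Gene coordinates are from GENCODE M21 (GRCm38) and promoters from RefSeq (GRCm38.p6).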

Additional observations from a re-analysis of the deposited data

Results flagged for a closer look

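In 4 of 44 gene and group combinations of 5 MFN2-R94Q:MFN1 libraries (9.09%), 1 library stood far from the others by Dixon's criterion, which chance meets in about 1 in 20. Tgfbr1 was at 5.96 RPKM in replicate 2, below 6.52 to 6.71 RPKM in the other libraries of the group. Cd53 was at 2.29 RPKM in replicate 5, below 2.53 to 2.57 RPKM. Aif1 was at 5.53 RPKM in replicate 4, above 4.72 to 4.78 RPKM. Ltc4s was at 1.66 RPKM in replicate 4, below 2.06 to 2.17 RPKM. Groups of 3 libraries were not examined in this way.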

How the results depend on the processing

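No paired analysis was possible because the labels give no pairing of mice between the genotypes. They also give no replicate numbers, and the numbers used here follow the order of deposit. No called value changed its direction under the alternatives run. In MFN2-R94Q against nTg the 3 members higher became 1 without the filter, 0 with only the 2 groups compared and 0 at an adjusted p of 0.01, and 0 to 3 with each library left out. The 3 members lower became 1 without the filter, after quantile normalization, with only the 2 groups, without the trend and at 0.01, and 1 to 5 with each library left out. The median of all 31 was 0.0514 with library weights and -0.0751 to 0.0527 with each library left out. The 6 other microglia genes higher there became 10 with library weights and 3 at 0.01, and the 3 lower became 1 at 0.01. In MFN2-R94Q:MFN1 against MFN2-R94Q the 24 members higher became 15 at 0.01, and the median was 0.34 to 0.47 with each library left out. The 1 member lower became 0 without the filter, with only the 2 groups, without the trend, with robust variance and at 0.01, and 0 to 1 with each library left out. The 30 other microglia genes higher became 16 at 0.01. In MFN2-R94Q:MFN1 against nTg the members higher numbered 10 to 22 with each library left out, and the 23 other microglia genes became 15 at 0.01 and 15 to 26 with each library left out; their median of 0.30 was 0.37 at a pseudocount of 0.1. The cause of these changes was not tested, other than that the stricter threshold calls fewer genes by construction. Across all alternatives the call of 15 of 25 members past the threshold in MFN2-R94Q:MFN1 against MFN2-R94Q, 9 of 15 in MFN2-R94Q:MFN1 against nTg and 1 of 6 in MFN2-R94Q against nTg did not change. Depth limits the lowest members, with counting errors of 15.2% to 21.3% at the lowest library of P2ry6, Ltc4s, Runx1 and Gpr183.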
